A study of Mus musculus with 6 samples.

Results

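Axon guidance ligands and their receptors were followed in cultured bone marrow mesenchymal stem cells (MSCs), progenitors from the marrow stroma that give rise to bone, cartilage and fat cells. The genes were taken by name: the semaphorins of classes 3 to 7, the ephrins, the Slits and the netrins as ligands, and the plexins, neuropilins, Eph kinases, Robo and Unc5 genes as receptors. The name pattern matched 63 of the 15063 genes listed for each library. These were 34 ligands, 28 receptors and Unc50, which shares letters with the netrin receptors but is not related to them and was at 25.3 to 35.0 RPKM in the 6 libraries. RPKM scales the reads of a gene by its length and by the depth of the library, so levels of different genes can be set side by side. Values of 3 libraries are given in the order 1 to 3. Bone marrow MSCs of 3-week-old mice were compared between wild type (WT, 3 libraries) and Mapk7 conditional knock out (CKO, 3 libraries). The deleted gene encodes ERK5, a mitogen-activated kinase, and the labels do not name the Cre driver, the strain or whether animals were pooled. All 6 cultures were untreated, and WT library 2 was taken at passage 7 against passage 5 for the rest. The comparison asks which transcripts of these signalling pairs differ when Mapk7 is deleted.

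Guidance ligands were found through their action on growing axons, and most of them also steer migrating mesenchymal, vascular and bone cells. Class 3 semaphorins are secreted and bind a neuropilin that pairs with a plexin, while other semaphorins are held in the membrane and bind plexins directly. Ephrins and Eph kinases are both membrane proteins and can signal into both of the touching cells. Slits act through Robo receptors, and netrins through Unc5 receptors, Dcc and neogenin. In bone, Sema3A with neuropilin-1 protects bone mass, Sema4D from osteoclasts acts on plexin-B1 of osteoblasts, and ephrin-B2 with EphB4 couples osteoclasts and osteoblasts.

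Each library held 17351907 to 20689481 reads. Mapk7 itself was at 7.12, 6.76 and 9.07 RPKM in WT libraries 1 to 3 and at 5.59, 3.84 and 5.45 RPKM in CKO libraries 1 to 3, so each CKO value lay under each WT value (limma adjusted p = 0.505) and the transcript was present. The labels name WT libraries 1 and 2 after 1 animal. Yet Ddx3y, a Y-linked gene, was at 0.0357 RPKM in WT library 1 and at 19.1 RPKM in WT library 2. Ddx3y was at 11.8 RPKM in WT library 3 and at 15.3, 6.45 and 16.0 RPKM in the CKO libraries, so only WT library 1 was near 0. With 3 Ddx3y reads in WT library 1 and 1915 in WT library 2, the label of 1 animal does not match the values. Why they differ was not tested. Y-linked expression was thus uneven within WT, and its part in differences between genotypes was not tested. The file header of WT library 3 numbers it as the second WT culture where its label says the third, so which animal it came from cannot be told, and n = 3 for WT rests on the titles. WT library 2 stood farthest from the rest, with correlations of 0.795 to 0.920 with the other libraries across genes. Its cell cycle genes averaged 1.35 on the log2(RPKM + 1) scale, against 3.70 to 4.92 elsewhere. The list mean of the stromal markers was lower in each CKO library (5.69, 5.17 and 5.54) than in each WT library (5.99, 6.01 and 5.97). Their levels were uneven: Col1a1 was at 1126 to 2959 RPKM, while Pdgfra was at 1.01 RPKM in CKO library 2 and 9.82 RPKM or more elsewhere. Of the 11 stromal markers tested, Pdgfra, Pdgfrb, Cxcl12 and Ly6a had all CKO values below all WT values, 0 had them all above, and none passed. Of all genes tested, 9.18% had all CKO values below and 7.51% had them all above. Thy1, Nt5e and Prrx1 had log2 differences (CKO minus WT) above 0 (0.40, 0.50 and 0.09), and the other stromal markers tested had them below 0. Lepr, a marker of marrow stroma in place, was under 1 RPKM in all 6 libraries. The mean of the macrophage markers was 3.86, 3.06 and 5.10 in the WT libraries and 3.66, 2.68 and 4.96 in the CKO libraries, and none of the 21 tested passed. Of 8 endothelial markers, 7 (Pecam1 and Cdh5 among them) were under 1 RPKM in every library. Sox10, a Schwann cell factor, was at 1.73 and 2.91 RPKM in CKO libraries 1 and 3 and at 0.55 RPKM or less elsewhere. In such bulk samples fewer cells of a type and less RNA per cell cannot be told apart.

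No guidance ligand or receptor passed the test between genotypes. Expression was tested with limma on log2(RPKM + 1) in genes that reached 1 RPKM in 3 or more libraries, which kept 24 ligands and 21 receptors, and p-values were adjusted over all 11085 genes tested. Of those genes, 0.00902% (a single gene) passed at an adjusted p of 0.05. limma-voom on reads recovered from the RPKM values called 0 of the 11085 genes, and so no guidance ligand or receptor either. At an unadjusted p under 0.05, limma had Unc5b higher in CKO, where 3.36% of all genes were, and Efna5, Nrp2, Ephb6 and Plxna3 lower, where 6.39% were (9.74% in both directions). The ligands had a median log2 difference of −0.47 (CKO minus WT), with 15 below 0 and 9 above, and the receptors one of −0.22, with 13 below and 8 above. The median of all genes tested was 0.03, with 46.3% below 0. Leaving out WT library 2 brought the ligand median to −0.15, leaving out CKO library 2 to −0.16, and leaving out CKO library 3 to −0.22. In 3 ligands (Efna5, Sema3c and Sema3e) and 3 receptors (Nrp2, Ephb6 and Plxna3) all CKO values lay below all WT values, and in none of the tested members did all lie above. Such separation was seen in 16.7% of all genes (9.18% with CKO below and 7.51% above), so the members' share was near the background. The separations depended in part on the scaling. After median centring of the libraries Sema3e overlapped, and Efnb2 and Unc5b lay all above (7.17% of all genes below and 10.6% above). After quantile normalization Sema3e and Efna5 overlapped, and Efnb2 and Sema4c lay all above (7.62% below and 10.3% above). The other 4 separations, of Sema3c, Nrp2, Ephb6 and Plxna3, held under both. The counts of separate ligands and receptors also moved with the libraries used. They were 10 and 6 when WT library 1 was left out (32.8% of all genes), 3 and 4 for WT library 2 (20.3%) and 5 and 7 for WT library 3 (22.3%). They were 4 and 7 when CKO library 1 was left out (27.2%), 5 and 5 for CKO library 2 (33.8%) and 3 and 3 for CKO library 3 (25.9%). For a single gene, exact permutation over 3 and 3 libraries has a smallest p of 0.1.

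**Figure D1:**
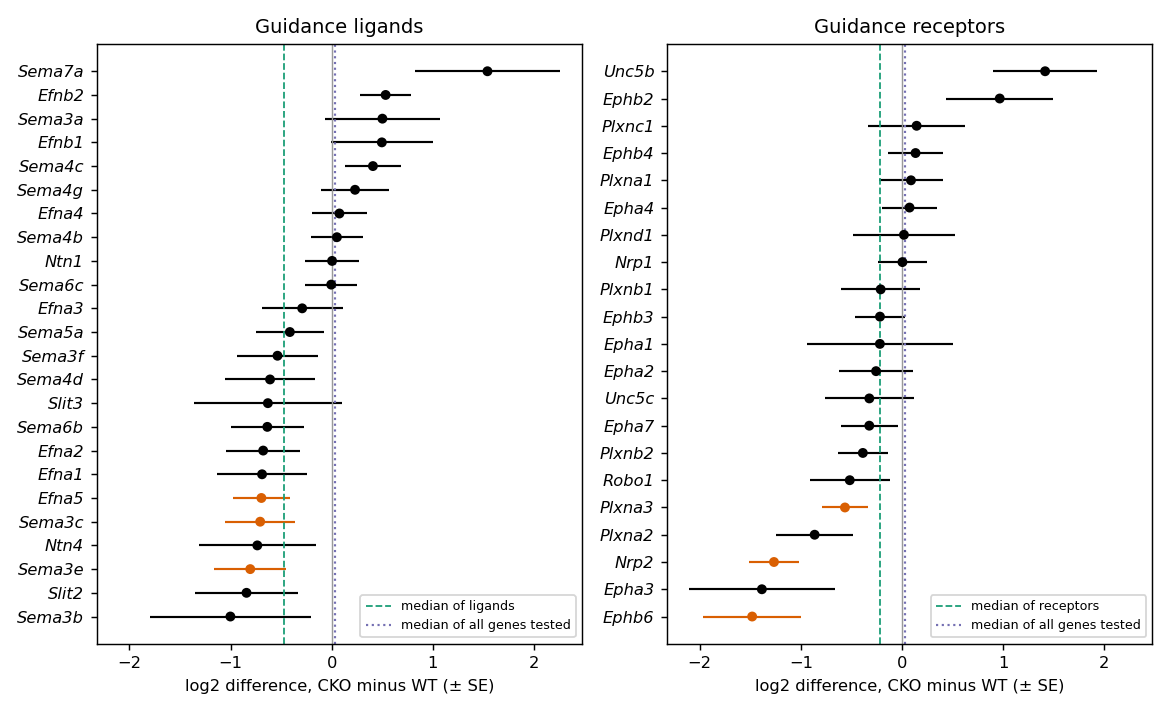
Log2 difference between CKO and WT on the log2(RPKM + 1) scale for the 24 ligands (left) and 21 receptors (right) tested, with bars of ± 1 SE from limma, and lines at the median of the ligands or receptors (dashed) and of all genes tested (dotted). Orange marks the 3 ligands and 3 receptors whose 3 CKO values lie all below the 3 WT values (Sema3e loses this after median centring, Sema3e and Efna5 after quantile normalization), and the ends of the scale are held by Sema7a and Unc5b above 0 and by Sema3b and Ephb6 below.

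Among the ligands, the secreted class 3 semaphorins were mostly below their WT level in CKO, with 4 of 5 tested below 0. Over the 7 listed genes the sum was 44.2, 84.7 and 65.2 RPKM in WT, against 41.5, 40.1 and 37.7 in CKO. The groups did not overlap, but WT library 1 came close to the CKO range, and after scaling the libraries to 1 median it was at 41.8 RPKM, inside the CKO values of 36.2 to 44.3 RPKM. The stromal marker mean was likewise lower in each CKO library, and its part in this was not tested. Sema3c, a ligand of vascular and mesenchymal patterning, made up 41.1% of that sum on average. It was at 25.4, 25.3 and 27.6 RPKM in WT, against 17.5, 8.80 and 24.2 in CKO (log2 difference −0.71, SE 0.34, adjusted p = 0.563). The WT values were tight (26.1 ± 1.28, SD, n = 3) and the CKO values spread widely (16.8 ± 7.71). Sema3e, the ligand that binds plexin-D1 without a neuropilin, was at 2.78, 5.54 and 2.74 RPKM in WT, against 1.75, 2.61 and 0.739 in CKO (−0.81, SE 0.36, adjusted p = 0.532). Its highest CKO value lay just under its lowest WT value, and the groups overlapped after median centring or quantile normalization.

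Sema3f, which acts mainly through neuropilin-2, was at 7.91, 14.4 and 17.0 RPKM in WT, against 13.4, 8.53 and 4.93 in CKO. These values overlapped (adjusted p = 0.674). Sema3a, the bone-protecting ligand of neuropilin-1, was at 4.37, 2.0 and 5.10 RPKM in WT, against 3.25, 15.0 and 3.09 in CKO. CKO library 2 alone stood high, and without it the log2 difference of 0.50 became −0.14. Sema3b was highest in the passage 7 library: 2.10, 35.4 and 11.9 RPKM in WT against 4.26 to 4.95 RPKM in CKO. Sema3d was at 1.39, 1.69 and 0.321 RPKM in WT, against 0.262 to 0.373 in CKO and was not tested, like Sema3g (at most 0.525 RPKM).

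The membrane-bound semaphorins were lower in level and did not share a direction, with 4 of 8 tested above and 4 below 0. Sema7a, a lipid-anchored ligand of plexin-C1 and β1 integrins, had the largest difference upward among the ligands. It was at 1.68, 0.249 and 5.30 RPKM in WT, against 3.80, 17.9 and 4.69 in CKO (log2 difference 1.54, SE 0.72, adjusted p = 0.553). WT library 3 lay inside the CKO range, and CKO library 2 was the highest, as for Sema3a. Sema4c, a ligand of plexin-B2, was at 3.67, 2.73 and 3.11 RPKM in WT, against 4.98, 2.96 and 6.05 in CKO (0.41, SE 0.27, adjusted p = 0.651), with overlap except after quantile normalization. Sema6b was at 0.847, 2.72 and 1.11 RPKM in WT, against 0.590, 0.125 and 1.16 in CKO. These overlapped, and CKO library 2 was the lowest.

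Sema4g was at 0.941, 1.63 and 1.05 RPKM in WT, against 1.33, 0.796 and 3.04 in CKO, so its upward difference of 0.23 rested on CKO library 3 and was −0.10 without it. Sema4d, which immune cells and osteoclasts make, was at 0.558, 1.77 and 4.41 RPKM in WT, against 0.876, 0.516 and 1.31 in CKO. It was highest in WT library 3 and lowest in CKO library 2, which also had the highest and the lowest macrophage marker means. The osteoclast marker mean was highest in CKO library 3 (2.26), against 1.25 to 1.58 elsewhere, with the lowest in CKO library 2. The part of either cell type in the Sema4d level was not tested. Sema4a, not tested, was at 1.35 RPKM in CKO library 3 and 0.324 RPKM or less in the others. Sema4f, also under the filter, was at 0.403, 0.135 and 0.311 RPKM in WT, against 0.749, 0.878 and 0.720 in CKO, without overlap (14 to 85 reads per library). Sema4b, Sema5a and Sema6c lay between 0.353 and 4.07 RPKM with overlapping groups, and Sema5b, Sema6a and Sema6d reached at most 0.478 RPKM.

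**Figure D2:**
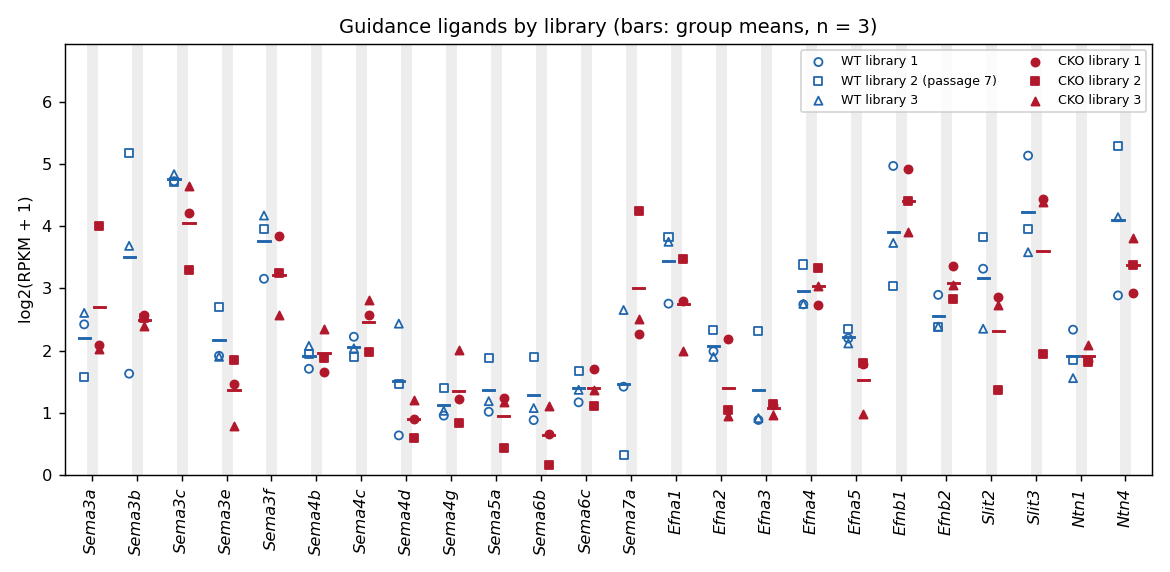
Level of the 24 ligands tested, as log2(RPKM + 1), in each WT library (open blue symbols) and CKO library (filled red symbols), with short bars at the group means (n = 3). Efna5, Sema3c and Sema3e have every CKO symbol under every WT symbol on this scale (Sema3c also after median centring and quantile normalization), Sema3b and Ntn4 are highest in the passage 7 library, and Sema3a and Sema7a are highest in CKO library 2.

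Ephrins of the A and B classes lay on opposite sides of 0 in part. Efna5, an A-class ephrin anchored by a lipid, was at 3.59, 4.10 and 3.34 RPKM in WT, against 2.46, 2.48 and 0.987 in CKO (log2 difference −0.70, SE 0.28, adjusted p = 0.496). Every CKO library was below every WT library, except after quantile normalization, where the groups overlapped. Efna2 was at 2.97, 4.01 and 2.73 RPKM in WT, against 3.57, 1.07 and 0.925 in CKO (−0.68), so CKO library 1 lay among the WT values. Efna1 was at 5.76, 13.2 and 12.5 RPKM in WT, against 5.95, 10.1 and 2.98 in CKO (−0.69), with overlap. Efnb2, the transmembrane ligand of EphB4, was at 6.45, 4.19 and 4.23 RPKM in WT, against 9.32, 6.13 and 7.33 in CKO (0.53, SE 0.25, adjusted p = 0.553). WT library 1 was the only overlap, above CKO library 2, and after median centring or quantile normalization all CKO values lay above all WT values. Efnb1, the most abundant ephrin (39.5% of the ephrin sum), was at 30.3, 7.24 and 12.3 RPKM in WT, against 29.2, 20.2 and 14.0 in CKO (0.50, SE 0.50, adjusted p = 0.751). Here too WT library 1 was high. Efna4 (5.69 to 9.45 RPKM) and Efna3 (0.850 to 3.98 RPKM) overlapped, and Efnb3 reached at most 0.270 RPKM.

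Of the Slits, Slit3, the main one here (71.7% of the Slit sum), was at 34.1, 14.6 and 11.0 RPKM in WT, against 20.6, 2.88 and 20.1 in CKO. Slit2 was at 8.97, 13.2 and 4.11 RPKM in WT, against 6.24, 1.59 and 5.67 in CKO. Both overlapped between genotypes (adjusted p = 0.788 and 0.622), and both had their lowest value in CKO library 2. The Slit3 difference was −0.63 with that library and 0.19 without it. Slit1 reached at most 0.461 RPKM. Among the netrins, Ntn4, a basement membrane netrin, was at 6.41, 38.0 and 16.7 RPKM in WT, against 6.59, 9.43 and 13.0 in CKO (−0.74, SE 0.58, adjusted p = 0.693). Ntn1, the classical Unc5 and Dcc ligand, was at 4.06, 2.60 and 1.95 RPKM in WT, against 2.59, 2.54 and 3.26 in CKO (0.00, SE 0.27, adjusted p = 0.998). Ntn3 was at 3.91 RPKM in the passage 7 library and 0.547 to 1.81 RPKM in the rest, and was not tested.

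Among the receptors, Nrp2 had the lowest p. Nrp2 encodes neuropilin-2, the co-receptor for Sema3F and Sema3C that also binds VEGF-C. It was at 27.0, 34.5 and 22.0 RPKM in WT, against 12.0, 8.44 and 12.4 in CKO, from 1323 to 5779 reads per library. The lowest WT value was well above the highest CKO value, and the means of 27.8 ± 6.28 and 10.9 ± 2.18 RPKM (SD, n = 3) stood 2.54-fold apart. The log2 difference was −1.27 (SE 0.25, adjusted p = 0.258, and 0.152 to 0.755 over the alternatives). It was −1.27 without WT library 1 and −1.10 without WT library 2. Its partner Nrp1, which encodes the Sema3A and VEGF-A co-receptor, was at 16.6, 11.2 and 11.8 RPKM in WT, against 16.3, 12.8 and 10.6 in CKO (0.00, SE 0.25, adjusted p = 0.997). All 3 CKO libraries thus had less Nrp2 and also lower means of the stromal markers, whose part in the Nrp2 level was not tested. The 2 neuropilins summed to 33.8 to 45.7 RPKM in WT, against 21.2 to 28.3 in CKO.

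The upstream sequence of Nrp2 is shown because it had the lowest p of the 45 ligands and receptors tested, beside that of Unc5b, the receptor with the largest upward difference. Each window holds the 250 bases before the RefSeq start (build GRCm38.p6), 5′ to 3′ on the strand of the gene, at chr1:62703067-62703316 (plus strand) for Nrp2 and chr10:60831582-60831831 (minus strand) for Unc5b. Capitals mark CTTTGAT, the core bound by TCF/LEF factors.
Nrp2: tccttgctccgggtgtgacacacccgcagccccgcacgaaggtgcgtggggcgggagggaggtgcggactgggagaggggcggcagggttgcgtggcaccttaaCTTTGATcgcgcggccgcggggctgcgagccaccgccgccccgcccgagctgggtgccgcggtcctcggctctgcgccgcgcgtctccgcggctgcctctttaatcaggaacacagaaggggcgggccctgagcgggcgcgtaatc
Unc5b: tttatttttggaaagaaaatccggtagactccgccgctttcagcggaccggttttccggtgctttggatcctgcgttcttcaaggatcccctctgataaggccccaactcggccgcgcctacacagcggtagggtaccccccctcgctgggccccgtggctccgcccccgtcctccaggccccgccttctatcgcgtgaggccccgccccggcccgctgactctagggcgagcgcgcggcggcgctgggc
CTTTGAT was searched on both strands, as were CCACCC (a KLF site) and CTAAAAA (part of MEF2 sites), each by itself, and the letters were chosen after promoter sequences were seen. The RefSeq table held 70 promoters of 54 of the 62 ligand and receptor genes. CTTTGAT was in 1 of the 70, that of Nrp2, 146 bases before the start. It was in 3.21% of all 32851 promoters and in 2.26% of those of the genes tested. CTAAAAA was in 0 of the 70, in 3.09% of all and in 2.22% of those of the genes tested. CCACCC was in 38 of the 70 (54.3%), in 28.1% of all promoters and in 32.8% of those of the genes tested, and no test was made of this. Neither window above held CCACCC or CTAAAAA. A match is only a run of letters and says nothing of binding.

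Plexins carry the semaphorin signal into the cell through a GTPase-activating domain. Plxnb2 was the most abundant (51.1% of the plexin sum), at 59.8, 68.0 and 51.6 RPKM in WT, against 56.2, 36.1 and 45.5 in CKO (−0.39, SE 0.25, adjusted p = 0.635). CKO library 1 lay inside the WT range. Plxna1 was at 33.5, 42.1 and 21.6 RPKM in WT, against 37.2, 24.8 and 40.0 in CKO, with full overlap (0.09, SE 0.31). Plxna3, a partner of neuropilin-2 in Sema3F signalling, was at 4.67, 5.04 and 5.43 RPKM in WT, against 3.66, 2.31 and 3.42 in CKO (−0.56, SE 0.22, adjusted p = 0.481). Its WT libraries were tightly grouped (5.05 ± 0.383 RPKM) and all above the CKO libraries (3.13 ± 0.719). Plxna2 was at 3.88, 3.35 and 1.54 RPKM in WT, against 2.28, 0.616 and 0.687 in CKO (−0.86, SE 0.38, adjusted p = 0.526). CKO library 1 was above WT library 3.

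Plxnc1, the Sema7A receptor, was at 2.33, 0.657 and 1.57 RPKM in WT, against 3.75, 0.381 and 1.93 in CKO (0.14, SE 0.48). Its lowest value was in CKO library 2, where Sema7a was highest. Plxnd1, the Sema3E receptor, was at 4.52 to 8.56 RPKM in WT, against 8.36, 2.07 and 9.82 in CKO. Plxnb1, the Sema4D receptor, was at 1.41 to 5.29 RPKM with overlap, and Plxna4 and Plxnb3 reached at most 1.02 RPKM and were not tested. CKO library 2 had the lowest value of the 6 libraries in 6 of the 7 plexins tested and in 10 of the 21 receptors, where it was lowest in 26.6% of all genes. It also had the lowest macrophage and stromal marker means, and their part in the plexin levels was not tested.

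**Figure D3:**
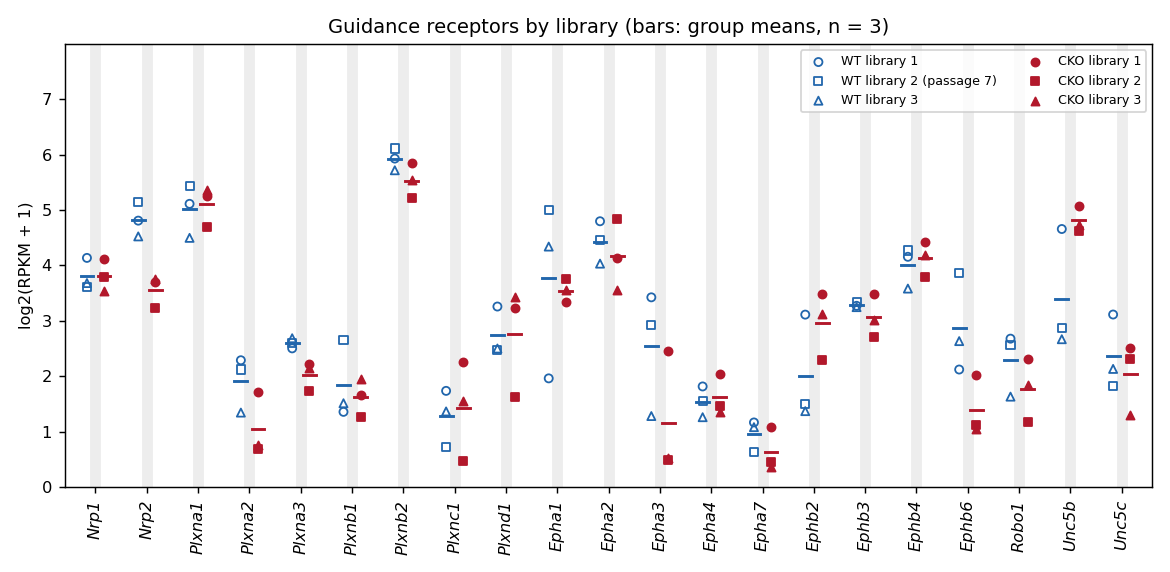
Level of the 21 receptors tested, as log2(RPKM + 1), in each WT library (open blue symbols) and CKO library (filled red symbols), with short bars at the group means (n = 3). Nrp2, Plxna3 and Ephb6 have every CKO symbol under every WT symbol, Unc5b (before median centring) and Ephb2 show WT library 1 with the CKO libraries, and CKO library 2 is the lowest symbol of 6 plexins.

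Eph receptors are the largest family of receptor tyrosine kinases. Ephb6, a member whose kinase domain is inactive, was at 3.35, 13.6 and 5.20 RPKM in WT, against 3.04, 1.18 and 1.06 in CKO (−1.48, SE 0.49, adjusted p = 0.378). The groups did not overlap, but WT library 1 and CKO library 1 were close, and the difference was −0.98 without the passage 7 library. Epha3, a receptor for ephrin-A5, was at 9.73, 6.59 and 1.43 RPKM in WT, against 4.49, 0.409 and 0.436 in CKO (−1.39, SE 0.72, adjusted p = 0.586). CKO library 1 lay above WT library 3. Ephb2 was at 7.64, 1.84 and 1.58 RPKM in WT, against 10.1, 3.88 and 7.67 in CKO (0.97, SE 0.53, adjusted p = 0.593). WT library 1 sat within the CKO values.

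Epha2 (26.8, 20.9 and 15.3 RPKM in WT, against 16.6, 27.4 and 10.7 in CKO) held the largest share of the Eph sum, 26.2%. Ephb4, the ephrin-B2 receptor of osteoblasts, was at 16.8, 18.3 and 11.0 RPKM in WT, against 20.5, 12.8 and 17.3 in CKO (0.13, SE 0.27, adjusted p = 0.882). Both overlapped. Epha4 was at 2.52, 1.93 and 1.40 RPKM in WT, against 3.09, 1.76 and 1.56 in CKO. Epha1 spanned 2.89 to 30.9 RPKM within WT alone, with 9.11 to 12.5 RPKM in CKO. Ephb3 (5.53 to 10.2 RPKM) and Epha7 (0.290 to 1.24 RPKM) overlapped, and Epha5 and Ephb1 reached at most 0.0837 RPKM.

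Of the Slit receptors, Robo2 was low in WT and lower still in CKO. It was at 0.770, 2.18 and 1.09 RPKM in WT (142, 478 and 201 reads), against 0.129, 0.0292 and 0.0424 in CKO (26, 6 and 8 reads). The groups did not overlap and the means of 1.35 ± 0.736 and 0.0670 ± 0.0543 RPKM stood 20.1-fold apart (two-sided exact permutation p = 0.1, the smallest possible, n = 3 per group). The size of the fold depended on CKO library 1: it was 37.6 without that library and 13.9 to 24.4 without any of the others. Robo2 reached 1 RPKM in 2 libraries and so was below the filter. Fitted without the filter it had a log2(RPKM + 1) difference of −1.09 (SE 0.22, adjusted p = 0.334), a scale that understates the change of so low a gene. Robo1 was at 5.40, 4.94 and 2.10 RPKM in WT, against 3.95, 1.27 and 2.58 in CKO (−0.52, SE 0.39, adjusted p = 0.684). Its groups overlapped, and Robo3 reached at most 0.0794 RPKM.

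Unc5b, a netrin receptor with a death domain, was of the 21 receptors tested the one with the largest upward difference. It was at 24.2, 6.30 and 5.35 RPKM in WT, against 32.7, 23.7 and 25.5 in CKO, from 545 to 3638 reads. The CKO libraries were alike (27.3 ± 4.77 RPKM), and WT library 1 lay inside their range while the other WT libraries were far below. After median centring all CKO values lay above all WT values, and after quantile normalization the groups overlapped again. The log2 difference was 1.41 (SE 0.51, adjusted p = 0.434). Without WT library 1 it was 2.04 (SE 0.27) and passed (adjusted p = 0.0444, higher in 3 of 3 CKO libraries), where 0.222% of all genes passed. Without WT library 2 it was 1.15 (adjusted p = 0.952), and the range over the alternatives was 0.0444 to 0.952. WT library 1 was also the only library with Ddx3y near 0, and whether this bore on Unc5b was not tested. Unc5c was at 7.65, 2.55 and 3.38 RPKM in WT, against 4.67, 3.95 and 1.45 in CKO (−0.32), and Unc5a reached at most 0.326 RPKM.

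**Figure D4:**
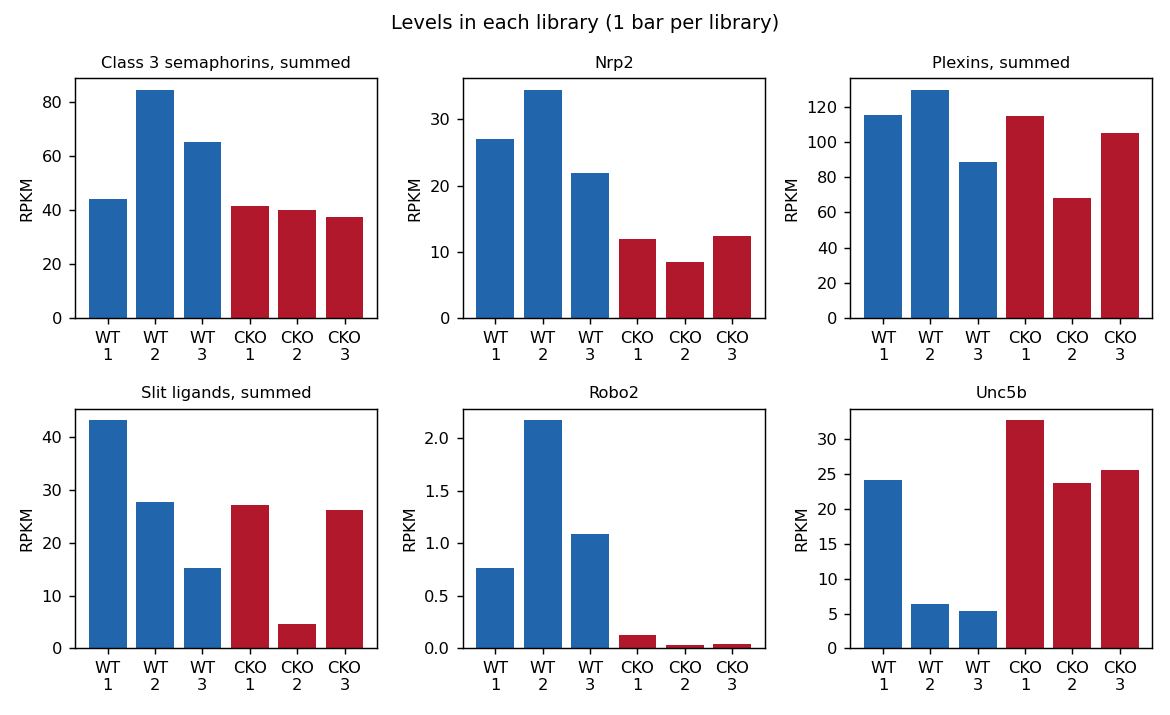
RPKM in each library (1 bar per library, WT blue, CKO red) of the summed class 3 semaphorins, Nrp2, the summed plexins, the summed Slits, Robo2 and Unc5b. Nrp2 and Robo2 are lower in all CKO libraries, CKO library 2 is lowest for the plexins and Slits, and Unc5b in WT library 1 (24.2 RPKM) is within the range of the CKO libraries (23.7 to 32.7 RPKM), an overlap that median centring removes.

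Extreme values were also counted by library. The passage 7 library held the highest value in 11 of the 24 ligands and 6 of the 21 receptors, against 21.3% of all genes, and 5 of those 11 were ephrins of the 7 tested. It held the lowest value in 5 ligands and in no receptor, against 36.9% of all genes. CKO library 2 held the lowest value in 8 of the 24 ligands, near its 26.6% of all genes. WT library 1 and CKO library 1 were the most alike pair across all genes (correlation 0.972), and Efnb1, Ephb2 and Unc5b were high in both.

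Partner genes outside the name pattern were read from 2 lists, 1 of co-receptors, other ligands and shared receptors, and 1 of intracellular effectors. None of the 20 co-receptor and ligand partners tested passed. Their median log2 difference was −0.50, with 16 below and 4 above 0. Itga1, the integrin subunit that binds collagen with β1, was at 22.2, 16.6 and 21.6 RPKM in WT, against 8.43, 3.72 and 7.22 in CKO (−1.55, SE 0.30, adjusted p = 0.258). Rgma, a neogenin ligand and BMP co-receptor, was at 5.73, 16.2 and 11.1 RPKM in WT, against 5.38, 3.62 and 3.25 in CKO (adjusted p = 0.364). Vegfa, whose product binds neuropilins, was at 43.2, 15.4 and 31.0 RPKM in WT, against 56.5, 61.2 and 156 in CKO (1.53, SE 0.50, adjusted p = 0.379). In these 3 genes the groups did not overlap, as in 8 of the 20 (6 with CKO below and 2 above), where 16.7% of all genes did not. At an unadjusted p under 0.05 there were 7 of the 20, against 9.74% of all genes.

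The 51 intracellular effectors tested had a median of 0.06, with 30 above and 21 below 0, and none passed. Enah, an actin polymerase downstream of Robo and netrin receptors, had the lowest p: it was at 12.2, 6.13 and 8.40 RPKM in WT, against 29.0, 26.2 and 46.3 in CKO (1.82, SE 0.32, adjusted p = 0.210). Ablim1, an actin-binding protein gene, was at 5.25, 12.1 and 7.07 RPKM in WT, against 2.16, 0.680 and 1.34 in CKO (−1.91, SE 0.36, adjusted p = 0.253). Fyn, the kinase recruited by plexin-A receptors, was at 10.5, 2.24 and 6.12 RPKM in WT, against 13.0, 12.1 and 15.8 in CKO (1.18, SE 0.44, adjusted p = 0.441). All CKO values lay above the WT values for Enah and Fyn, and below them for Ablim1. Groups were separate in 8 of the 51 (5 above and 3 below), near the 16.7% of all genes.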

How the data were processed

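The authors deposited 1 RPKM value per gene and library, in a column that the file headers call only expression. That the values are RPKM was inferred from the numbers themselves: 15062 of 15063 genes (99.99%) returned whole reads in all libraries once a library total and a gene length, both integers, were found (within 0.0002 read or a relative error of 1e-07), and 0 of 500 genes with shuffled values did. Totals and reads in the text are these recovered ones. Reads were placed on mm9 per the submitters' processing notes, and libraries were stranded TruSeq mRNA per the labels' protocols. No source used here names the aligner, counter, annotation, strand setting or filters, so overlapping or antisense genes may share reads.

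Titles gave the groups, and each file was tied to its sample by the deposit's record, not by its header. The labels name WT libraries 1 and 2 after 1 animal. They nowhere state that libraries of a group came from separate cultures or animals, so p-values measure only the spread between these libraries. The test was limma 3.58.1 in R 4.3.3 on log2(RPKM + 1), genotype only, with intensity trend and robust moderation, two-sided, Benjamini-Hochberg adjusted, threshold 0.05, tested on simulated data. A count model had been foreseen for whole-number counts and was not used, since the files hold RPKM. The members and lists were chosen with earlier results of these data known. Named members were the 6 with the lowest p per direction among ligands and among receptors, the 2 most abundant per family, and 3 per partner list, with other members named for completeness. Alternatives were other normalizations, filters, pseudocount and variance model, each library left out, WT libraries 1 and 2 merged, the replicate number as a block and, chosen after seeing the data, limma-voom on recovered reads. Promoter sequences are from RefSeq (GRCm38.p6), which is not the build of the reads.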

Additional observations from a re-analysis of the deposited data

How the results depend on the processing

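No guidance gene passed under any alternative run with all 6 libraries, and Unc5b passed when WT library 1 was left out. The number of all genes passing (1) was 2 with median centring and 2 with quantile normalization, 0 without a filter, 4 with a filter at RPKM 5, 0 with a pseudocount of 0.1, 50 with WT libraries 1 and 2 merged, 0 with limma-voom, 5 at an adjusted p of 0.1, and 0 to 24 with 1 library left out. The ligand median (−0.47) was −0.18 without a filter, −0.63 with a filter at RPKM 5, −0.66 with a pseudocount of 0.1, −0.66 with limma-voom, and −0.56 to −0.15 with 1 library left out. The receptor median (−0.22) was 0.00 with a filter at RPKM 5. Ligands whose groups did not overlap (3) numbered 3 to 10 with 1 library left out, and receptors (3) numbered 3 to 7. In those fits 20.3% to 33.8% of all genes did not overlap, since fewer libraries make separation more frequent in any gene. With a filter at RPKM 5, 1 ligand and 1 receptor were separate, and with the merged libraries 6 ligands and 4 receptors were. The share of all genes was not counted in these settings, so these counts cannot be read as a result about the members. Of the 33 named members tested, 22 kept their direction in each alternative run. The other 11 crossed 0 with 1 library left out: Epha2 (−0.586 to 0.0554), Epha4 (−0.13 to 0.21), Ephb4 (−0.0764 to 0.311), Nrp1 (−0.15 to 0.17), Ntn1 (−0.17 to 0.21), Plxna1 (−0.17 to 0.30), Plxnc1 (−0.27 to 0.62), Sema3a (−0.14 to 0.84), Sema4g (−0.10 to 0.49), Slit3 (−1.05 to 0.19) and Unc5c (−0.588 to 0.0545). The causes were not tested.

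The labels do not say that libraries of the same replicate number shared a litter, batch or day. Their deviations from the group means correlated at 0.198 for number 1, 0.014 for number 2 and −0.019 for number 3. Of the 6 libraries, 2 correlated best with their own number. Whether libraries of 1 number shared a batch cannot be told from these values. With the replicate block, 0 of all genes and 0 guidance genes passed. A count model on the recovered reads, foreseen in 2 forms, was not run. Reads were few for Robo2 in CKO (6 to 26), which limits its fold.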
